A study of Homo sapiens with 4 samples.

Results

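The TNRC6 (GW182) family was examined at the poly(A) sites of its 3 genes, TNRC6A, TNRC6B and TNRC6C, in DICER(ex5) cells. Members were the rows of the deposited table whose chromosome, strand, start and end lay in fixed hg19 windows on the plus strand: 24740 to 24839 kb of chromosome 16 for TNRC6A, 40440 to 40733 kb of chromosome 22 for TNRC6B and 76000 to 76106 kb of chromosome 17 for TNRC6C. The windows held 8 of the 31081 poly(A) regions in the table, 3 in TNRC6A, 3 in TNRC6B and 2 in TNRC6C. All 8 had 10 reads or more over the 4 libraries and 5% or more of the reads of their gene, the minimum used here for a region to pass.

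DICER(ex5) cells carry a hypomorphic Dicer, the ribonuclease that makes mature microRNAs, and derive from the human colorectal carcinoma cell line HCT116. The study read polyadenylation events in this line alone, in 4 libraries that its design text calls biological quadruplicates. There is no parental or other control group, so no value below measures an effect of the Dicer change. The table carries no gene names, regions were taken from it only by the windows above, and DICER1 and markers of the cell type were not analysed here. A read in this assay marks where a transcript was cleaved and given its poly(A) tail, so a gene's reads count transcript ends, and levels were set side by side with no division by gene length.

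TNRC6 proteins act in the last step of microRNA silencing in animal cells. Their glycine-tryptophan (GW) repeats bind Argonaute proteins, which carry the microRNA, and their C-terminal silencing domain recruits the PAN2-PAN3 and CCR4-NOT deadenylase complexes, which shorten the poly(A) tail of the targeted mRNA. Mammals have the paralogues TNRC6A, TNRC6B and TNRC6C. TNRC6A was first described as GW182, a protein of the cytoplasmic granules called processing bodies.

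The libraries held 2163977 to 5713530 reads. Over all regions, Pearson's r of log2(CPM + 1), where CPM are counts scaled to the library's total in the table, was 0.97 for the pair of libraries 1 and 2, 0.98 for libraries 3 and 4, and 0.84 to 0.87 for the other pairs. These values are across regions of the same cells, which are not independent replicates. No label gives a batch or a day, so nothing within a batch can be computed, and every SD below includes this division. A region enters the table only with 11 or more reads in its highest library, as the values show, so weaker TNRC6 ends may be missing from it.

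TNRC6A, the founding member, gave the most reads. Its 3 regions together had 44.5, 49.9, 61.3 and 57.5 CPM in libraries 1 to 4, a mean of 53.3 ± 7.51 CPM (SD, n = 4). TNRC6B had 22.5, 25.9, 13.5 and 15.3 CPM, a mean of 19.3 ± 5.86 CPM (SD, n = 4). TNRC6C had 13.0, 6.47, 15.8 and 15.8 CPM, a mean of 12.8 ± 4.39 CPM (SD, n = 4). TNRC6A stood above its paralogues in every library, whereas TNRC6B was above TNRC6C in libraries 1 and 2 and slightly below it in libraries 3 and 4. These values rest on 919, 311 and 235 reads for TNRC6A, TNRC6B and TNRC6C. In library 2, TNRC6C had only 14 reads. In bulk RNA, a lower level in a library can mean fewer cells with the transcript or less of it per cell, and these cannot be told apart.

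**Figure D1:**
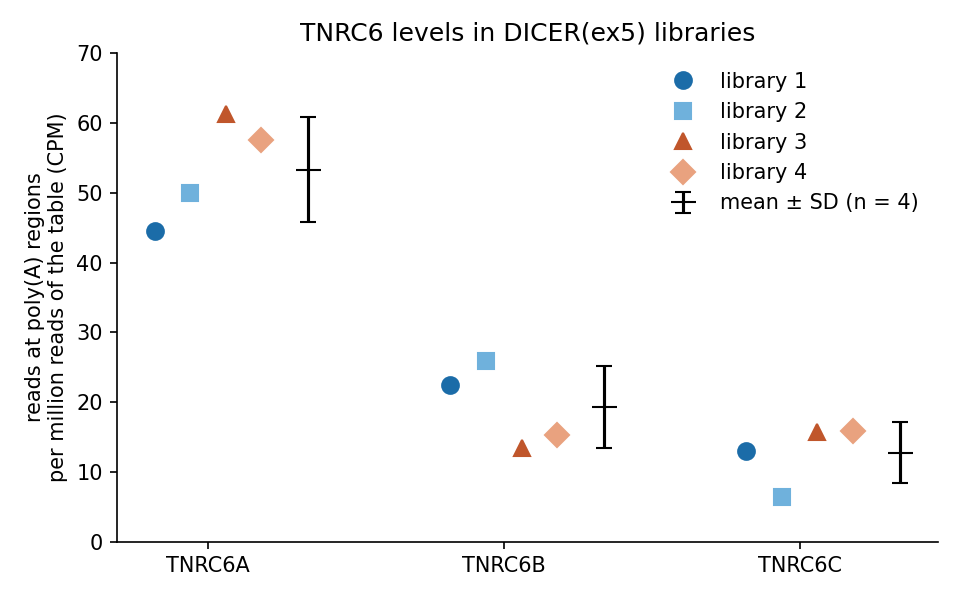
CPM summed over the regions of each TNRC6 gene, with a point for each of the 4 libraries and the mean ± SD beside them. TNRC6A lies between 44.5 and 61.3 CPM, above every value of TNRC6B and TNRC6C, which overlap.

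The level of TNRC6B was below that of TNRC6A in 4 of 4 libraries, with a mean log2 ratio of -1.51 ± 0.63 (SD, n = 4; exact sign-flip permutation test within libraries, two-sided p = 0.125, adjusted over 3 pairs of genes p = 0.188). TNRC6A was above TNRC6C in 4 of 4 libraries, by 2.13 ± 0.55 on the log2 scale (SD, n = 4; exact p = 0.125, adjusted p = 0.188). With 4 libraries, 0.125 is the smallest p this test can give, so no pair can pass 0.05. The log2 ratio of TNRC6B over TNRC6C was 0.63 ± 1.01 (SD, n = 4; exact p = 0.5, adjusted p = 0.5), positive in 2 of 4 libraries, and did not exceed the spread between libraries. Without library 2, it was 0.17.

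Against the rest of the table, joined into 17963 loci of plus- or minus-strand regions within 5 kb of the next, TNRC6A had a higher mean level than 77.6% of loci, TNRC6B than 58.7% and TNRC6C than 51.5%. The median locus had 11.7 CPM. These ranks use the sum over each window, and the ends of TNRC6B and TNRC6C lie in separate loci. Their regions within 5 kb of the most 3' one had means of 13.7 CPM for TNRC6B and 11.1 CPM for TNRC6C. On that unit TNRC6C was below the median locus. The family as a whole had 80.0, 82.3, 90.5 and 88.6 CPM in libraries 1 to 4 (mean 85.3 ± 5.0, SD, n = 4). TNRC6A made up 62.2% ± 5.25 of those family reads, TNRC6B 22.9% ± 8.07 and TNRC6C 14.9% ± 4.71 (SD, n = 4). The summed family level thus differed by at most 1.13-fold between libraries, while the levels of its members differed by 1.38-fold for TNRC6A, 1.92-fold for TNRC6B and 2.44-fold for TNRC6C. These folds are for counts scaled to library totals, and the family level was not tested under other scalings.

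The genes differed in how their ends were laid out. All 3 TNRC6A ends lay within 1470 bases of each other, close to the end of the window. TNRC6B and TNRC6C each had a single region near the end of the window and weaker ones far before it, 12223 and 89750 bases for TNRC6B and 101989 bases for TNRC6C. The files name no exons or introns, so whether these distant ends are intronic is not known here. Priming by oligo(dT) at internal runs of A could also give such ends, and this was not tested, for want of an hg19 sequence.

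**Figure D2:**
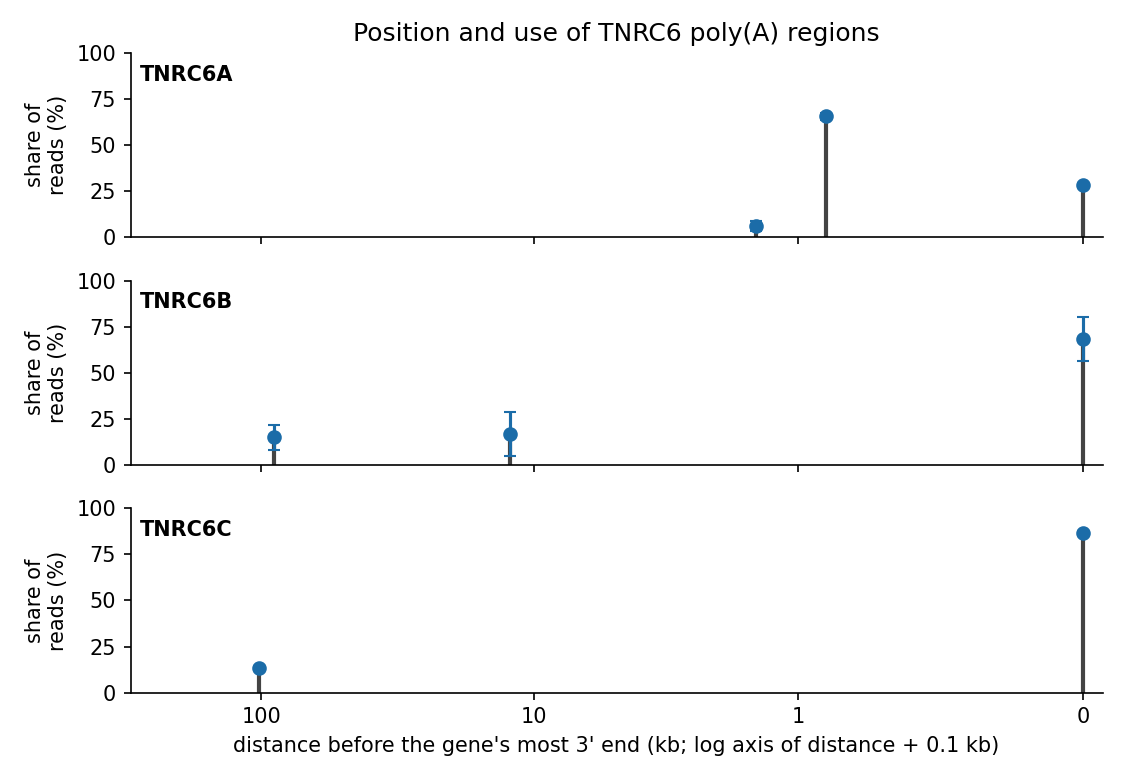
Share of a gene's reads at each region (mean over 4 libraries, bars are SD) against the distance of its 3' end before the most 3' end of the gene, on a log axis with 5' on the left. TNRC6A keeps all its reads within 1470 bases, while TNRC6B and TNRC6C have minor ends more than 10 kb before the main one.

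TNRC6A used its middle region most. That region, on chromosome 16 from 24836774 to 24836792, had 150, 68, 234 and 155 reads in libraries 1 to 4, or 35.0 ± 5.83 CPM (SD, n = 4), more than 83.1% of all regions in the table. The most 3' one, from 24837531 to 24837557, had 63, 31, 99 and 68 reads, or 15.2 ± 2.48 CPM (SD, n = 4). The most 5' one, from 24836071 to 24836087, had 19, 9, 17 and 6 reads, or 3.07 ± 1.15 CPM (SD, n = 4). The middle region thus outnumbered the most 3' region in every library, and the most 5' region was the weakest in every library.

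The middle and the most 3' TNRC6A regions took similar shares in all libraries, and the small share of the most 5' one varied more relative to its size. The middle region took 64.7%, 63.0%, 66.9% and 67.7% of the gene's reads in libraries 1 to 4, a mean of 65.5% ± 2.14 (SD, n = 4). The most 3' region took 27.2%, 28.7%, 28.3% and 29.7%, a mean of 28.5% ± 1.05 (SD, n = 4). The widest 95% Wilson interval of the most 3' share, that of library 2, ran from 21.0% to 37.9%, and the shares of all 4 libraries lay within it. The most 5' region took 8.19%, 8.33%, 4.86% and 2.62%, a mean of 6.00% ± 2.77 (SD, n = 4), lower in libraries 3 and 4 than in libraries 1 and 2. In percentage points this SD is close to that of the middle region. The shares rest on 19, 9, 17 and 6 reads, and their difference was not tested. The 5% minimum was applied to the share pooled over libraries, which was 5.55% for the most 5' region. In libraries 3 and 4 its share was below 5%.

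Among the 1294 loci of the table with 3 passing regions, in which the windows of TNRC6A and TNRC6B are included, the middle region was the strongest at 32.8% and the most 3' one at 43.0%. The pooled share of the middle TNRC6A region was higher than that of the middle region at 85.9% of these loci. The median most 3' share there was 33.7%, against 28.4% of pooled reads for TNRC6A.

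TNRC6B used its most 3' region most. This region, on chromosome 22 from 40731805 to 40731823, had 85, 46, 42 and 39 reads in libraries 1 to 4, which is 16.3, 21.3, 7.35 and 9.79 CPM, a mean of 13.7 ± 6.31 CPM (SD, n = 4). Libraries 1 and 2 were high and libraries 3 and 4 low. The 95% Poisson intervals, which cover counting error only, ran from 13.0 to 20.2 CPM in library 1 and from 15.6 to 28.4 CPM in library 2, against 5.30 to 9.94 CPM in library 3 and 6.96 to 13.4 CPM in library 4. The intervals of libraries 1 and 4 overlapped slightly, and the other intervals of libraries 1 and 2 did not overlap those of libraries 3 and 4.

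The ends of TNRC6B further 5' were weak and did not follow the same order. The region from 40642046 to 40642073 had 12, 10, 18 and 5 reads in libraries 1 to 4, a mean of 2.83 ± 1.42 CPM (SD, n = 4). The region from 40719564 to 40719600 had 20, 0, 17 and 17 reads, a mean of 2.77 ± 1.92 CPM (SD, n = 4). The count of 0 in library 2 allows a level of up to 1.39 CPM (3 counts), below the 2.98 to 4.27 CPM of the other libraries. Summed, these distant regions had 6.14, 4.62, 6.13 and 5.52 CPM and differed by at most 1.33-fold between libraries, against 2.89-fold for the most 3' region.

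**Figure D3:**
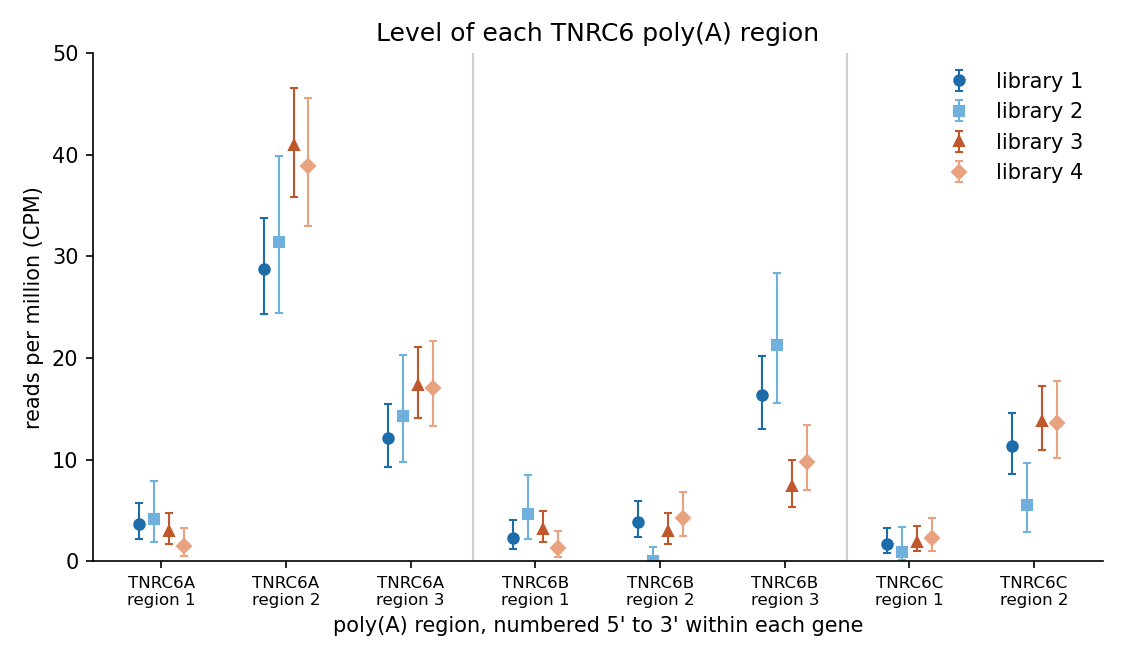
CPM of each of the 8 TNRC6 regions in each library, with 95% Poisson intervals that cover counting error only (for the count of 0, up to the limit of 3 counts). The middle TNRC6A region (region 2) is the strongest in every library, and TNRC6B region 3 is at 16.3 and 21.3 CPM in libraries 1 and 2 and at 7.35 and 9.79 CPM in libraries 3 and 4.

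The most 3' region of TNRC6B therefore took 72.6%, 82.1%, 54.5% and 63.9% of the gene's reads in libraries 1 to 4, a mean of 68.3% ± 11.8 (SD, n = 4). The remaining 31.7% ± 11.8 (SD, n = 4) fell at the ends more than 5 kb before it. Of the 3 genes, TNRC6B had the widest spread of the most 3' share between libraries. Its SD was 11.8 percentage points, against 1.05 for TNRC6A and 0.99 for TNRC6C. The 2 small SDs do not show stable usage, since counting error is wider. In library 3, where both genes had the most reads, Wilson intervals ran from 23.8% to 33.2% for TNRC6A and from 79.4% to 93.0% for TNRC6C. For TNRC6C, only 9, 2, 11 and 9 reads in libraries 1 to 4 lay outside the most 3' region.

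TNRC6C had a main end on chromosome 17 from 76103530 to 76103548, with 59, 12, 79 and 54 reads in libraries 1 to 4, or 11.3, 5.55, 13.8 and 13.6 CPM (mean 11.1 ± 3.84, SD, n = 4). Library 2 was the lowest. The second region, from 76001548 to 76001559, had 9, 2, 11 and 9 reads, or 1.71 ± 0.57 CPM (SD, n = 4), less than all but 7.92% of the regions in the table. Its highest count, 11 in library 3, equals the lowest that any region in the table has in its highest library. The share of the main end thus depends on a region at the limit of entry. The main end took 86.8%, 85.7%, 87.8% and 85.7% of the gene's reads, a mean of 86.5% ± 0.99 (SD, n = 4). The Wilson interval in library 2, with 14 reads in all, ran from 60.1% to 96.0%, so a difference in usage within these wide limits could be missed there.

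**Figure D4:**
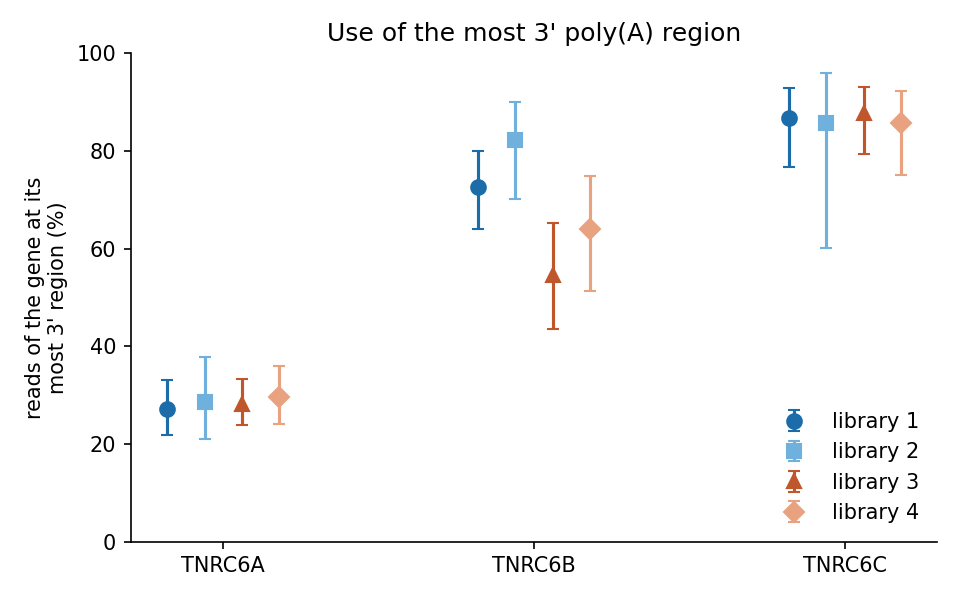
Share of each TNRC6 gene's reads at its most 3' region in each library, with 95% Wilson intervals that cover counting error only. TNRC6A lies at 27.2% to 29.7%, TNRC6C at 85.7% to 87.8% and TNRC6B at 54.5% to 82.1%.

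At their most 3' regions alone the genes were closer in level, with means of 15.2 CPM for TNRC6A, 13.7 CPM for TNRC6B and 11.1 CPM for TNRC6C. There the log2 ratio of TNRC6B over TNRC6A was -0.26 ± 0.90 (SD, n = 4; exact sign-flip permutation p = 0.625, adjusted p = 0.75), and it was positive in libraries 1 and 2 and negative in libraries 3 and 4. Without library 3 its mean was 0.066, of the opposite sign, and without library 4 it was -0.08. The log2 ratio of TNRC6A over TNRC6C was 0.53 ± 0.57 (SD, n = 4; exact p = 0.125, the smallest possible; adjusted p = 0.375), positive in 4 of 4 libraries. Without library 2 it was 0.25. That of TNRC6B over TNRC6C was 0.27 ± 1.26 (SD, n = 4; exact p = 0.75, adjusted p = 0.75), and without library 2 it was -0.28, so neither ratio of TNRC6B has a settled direction at its most 3' region.

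Fisher's exact test was used to compare the libraries for usage of the most 3' region, on counts thinned to the smallest library, adjusted by Benjamini-Hochberg over 5072 loci and windows in each pair of libraries. Such a test compares libraries, not conditions, and takes reads as independent molecules. No source used here says whether PCR duplicates were removed, so its p-values cover counting error only and are too small where duplicates remain. At an adjusted p under 0.05, TNRC6A, TNRC6B and TNRC6C were each called in 0 of 6 pairs. The background was 0.296% of loci called between libraries 1 and 2, 10.3% between 1 and 3, 9.29% between 1 and 4, 15.6% between 2 and 3, 14% between 2 and 4 and 0.0394% between 3 and 4. At an unadjusted exact p under 0.05, TNRC6B differed in 2 pairs, library 2 against library 3 (p = 0.0287, adjusted p = 0.131) and library 2 against library 4 (p = 0.0433, adjusted p = 0.186), and TNRC6A and TNRC6C in 0. At that unadjusted threshold the background was 6.92% of loci for libraries 1 and 2, 20.5% for 1 and 3, 20% for 1 and 4, 25.9% for 2 and 3, 24.7% for 2 and 4 and 5.17% for 3 and 4. Another random thinning called TNRC6B between libraries 2 and 4 (adjusted p = 0.0198), with 14.2% of loci called in that pair. With all reads kept, TNRC6B was called between libraries 2 and 3, where its most 3' share was 82.1% and 54.5% (exact p = 0.00089, adjusted p = 0.00636). The background with all reads kept was 0.69% of loci called for libraries 1 and 2, 23.4% for 1 and 3, 18% for 1 and 4, 21.9% for 2 and 3, 18.3% for 2 and 4 and 0.237% for 3 and 4. Whether TNRC6B is called thus depends on the thinning.

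Levels of single regions were also compared between libraries by their fold in CPM, with no test, at the 4 TNRC6 regions with 100 reads or more. Both such TNRC6A regions stayed within 2-fold in all 6 pairs of libraries. The most 3' region of TNRC6B was 2.22-fold higher in library 1 than in library 3, 2.89-fold higher in library 2 than in library 3 and 2.17-fold higher in library 2 than in library 4. The main region of TNRC6C was 2.04-fold higher in library 1 than in library 2, and library 2 was below libraries 3 and 4 by 2.49-fold and 2.44-fold. Under TMM scaling the first of these was 1.998-fold and no longer past 2-fold. Over the 15359 regions of the table with 100 reads or more, a 2-fold difference in either direction was found at 2.08% between libraries 1 and 2, 12.8% between 1 and 3, 12.2% between 1 and 4, 18.5% between 2 and 3, 17.7% between 2 and 4 and 1.9% between 3 and 4. With 0 to 2 of 4 TNRC6 regions past 2-fold in a pair, the counts are too small to set against these shares.

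The surroundings of the windows were read for ends that could belong to the genes or overlap them. RefSeq on GRCh38.p14 gives gene lengths of 216 kb for TNRC6A, 291 kb for TNRC6B and 151 kb for TNRC6C, while the windows cover 99, 293 and 106 kb. The nearest plus-strand region before the first member lay 251878 bases away for TNRC6A and 504858 bases away for TNRC6C, so a window as long as the RefSeq gene would add no region there. The next plus-strand region after TNRC6B, from 40762510 to 40762658, lay 30687 bases beyond its last end and was much stronger, at 255 ± 15.5 CPM (SD, n = 4). RefSeq places ADSL as the next protein-coding gene there. After TNRC6C, the next plus-strand region, from 76137436 to 76137463, lay 33888 bases beyond its last end. It had 44, 11, 29 and 29 reads in libraries 1 to 4, or 6.47 ± 1.67 CPM (SD, n = 4). Whether it belongs to TNRC6C was not tested. On the opposite strand, the windows of TNRC6A and TNRC6B held no region. The window of TNRC6C held 1, from 76103472 to 76103488 on the minus strand, with 31, 6, 17 and 7 reads in libraries 1 to 4, or 3.36 ± 1.80 CPM (SD, n = 4). It ended 42 bases before the start of the main TNRC6C region. The next minus-strand region after that window, from 76108985 to 76109011, started 5437 bases beyond the last TNRC6C end. It was stronger, at 28.7 ± 7.84 CPM (SD, n = 4). RefSeq has TMC6 overlapping the end of TNRC6C on GRCh38.p14, and the table does not say to which transcript the reads of either minus-strand region belong.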

How the data were processed

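The authors deposited raw read counts per poly(A) region and library, with chromosome, start, end and strand, per the file headers. Bowtie2 2.2.5 and hg19 are named in the submitters' processing notes. How regions were made, whether the degenerate primer bases removed PCR duplicates, and whether internally primed reads were filtered are not given in the sources used here. Positions are printed as deposited. Per the labels' protocols, fragments of 50 to 100 nt of poly(A)+ RNA were primed with anchored oligo(dT).

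Members and tests were chosen with earlier results of these data known. All regions in the windows are named. Other genes of microRNA silencing were not analysed here, since no hg19 annotation was used to place them, and no genes of like pattern were sought, since 4 libraries of a single group hold no pattern over conditions. Counts were divided by the library's total. A region's 3' end is its end coordinate on the plus strand. Wilson and Poisson intervals are at 95%, and they and the floor of 3 counts cover counting error only. The windows of TNRC6B and TNRC6C entered Fisher's test as features of their own, since their ends lie in separate loci. The design planned this test for loci. The test was tried on simulated data with all reads kept, so the thinning was not covered. RefSeq matched all 3 symbols. Python 3.11.15, SciPy 1.17.1, and, for alternative scalings, edgeR 4.0.16 and DESeq2 1.42.0 were used. Alternatives covered scaling, read and share minimums, narrow regions, joining of loci, thinning and leaving out each library.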

Additional observations from a re-analysis of the deposited data

Results flagged for a closer look

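Of 29 values over the 4 libraries, 2 had a library set apart from the others, and chance flags about 1 in 20. Both come from the low TNRC6C count of 14 reads in library 2. There TNRC6C made up 7.87% of the family's reads, against 16.3%, 17.4% and 17.8% in libraries 1, 3 and 4. The log2 ratio of TNRC6A over TNRC6C was 2.95 in library 2, against 1.77, 1.96 and 1.86 in libraries 1, 3 and 4.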

How the results depend on the processing

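No comparison of conditions, paired or not, was possible because the series has 1 group. The ratios between genes were paired within library. The most 3' regions alone gave ratios whose direction turned when a library was left out, an alternative added after seeing the data: TNRC6B over TNRC6A ranged from -0.54 to 0.066 on the log2 scale and TNRC6B over TNRC6C from -0.28 to 0.67. TNRC6A over TNRC6C ranged from 0.25 to 0.68. Over all regions, TNRC6A exceeded both paralogues in every library, so leaving 1 out could not turn its ratios. TNRC6B over TNRC6C stayed positive, at 0.17 to 0.91. The 10-read and 5% minimums and the omission of narrow regions removed no TNRC6 region. The mean levels of TNRC6A, TNRC6B and TNRC6C moved by less than 1 SD under TMM or DESeq2 scaling. The TMM factors ran only from 0.963 to 1.049, too close together to move a mean by 1 SD. TMM did change the SD between libraries, from 7.51 to 9.77 CPM for TNRC6A, 5.86 to 5.13 for TNRC6B and 4.39 to 4.76 for TNRC6C. The means also moved by less than 1 SD without narrow regions and without any 1 library, but neither alternative could have shown otherwise. No TNRC6 region was narrow enough to be left out, so only the library totals changed. Leaving out 1 of 4 libraries cannot move a mean by 1 SD. The most 3' share of TNRC6A was 30.3% with a 10% minimum, and 28.0% to 30.5% when each library was left out; without library 1 its most 5' region no longer passed. That of TNRC6B was 80.4% with at least 50 reads per region, since its region 89750 bases upstream then dropped out. At that minimum TNRC6C had 1 passing region, so its share could not be computed. Loci called between at least 1 pair of libraries numbered 1078, and 1688 with unthinned counts. TNRC6B was called in 0 pairs with the thinning reported and in 1 under another random thinning, between libraries 2 and 4 (exact p = 0.00218, adjusted p = 0.0198), where 14.2% of loci were called; that thinning was chosen after seeing the data. It also turned the sign of 8 of the 18 differences in most 3' share of TNRC6 genes between libraries, none of them called under either thinning. At 500 reads per locus TNRC6B and TNRC6C were not tested. Regions past 2-fold in at least 1 pair numbered 3419 of 15359 (22.3%), and 1626 of 10623 (15.3%) with a minimum of 200 reads, an alternative also added later. Depth limits TNRC6C most, with 14 reads in library 2.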
